A study of Mus musculus with 6 samples.

Results

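The replication-dependent histone genes are the clustered genes that supply most of the core histones H2A, H2B, H3 and H4 and the linker histone H1 when DNA is copied. They were taken here as every gene whose name in the deposited table begins with Hist1h, Hist2h, Hist3h or Hist4h, which gave 65 of 31763 genes. By name, 6 encode H1, 17 encode H2A, 18 encode H2B, 11 encode H3 and 13 encode H4. All 65 matched the GENCODE annotation of mouse build GRCm38 (mm10), which places the 53 Hist1 genes on chromosome 13, 8 Hist2 genes on chromosome 3, 3 Hist3 genes on chromosome 11 and 1, Hist4h4, on chromosome 6. Of the Hist1 genes, 23 lie at chr13:21715763-22043676 and 29 at chr13:23531050-23764406, and Hist1h2al lies apart from both groups at chr13:51202727-51203065. The annotation lists Hist1h2al and Hist3h2bb-ps as processed pseudogenes and the others as protein-coding.

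RNA of the medial prefrontal cortex (mPFC) was sequenced from 3 morphine samples and 3 saline samples. All came from male C57BL/6J mice aged 8 to 10 weeks that went through conditioned place preference (CPP), a test in which a drug is paired with one chamber. The morphine group received morphine (10 mg/kg) and the saline group received saline (10 ml/kg), both by intraperitoneal injection, and tissue was taken after a drug-free stay of about a week in the home cage and a retrieval test. Whether each sample came from a single mouse is not stated in the labels. The p-values thus rest on the variation among these 6 samples, part of which may be technical.

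Canonical histone messengers are made mainly in S phase, when newly copied DNA has to be wrapped. Unlike other messengers they normally end in a short conserved stem-loop instead of a poly(A) tail: the stem-loop binding protein (Slbp) holds the hairpin, and the U7 snRNP directs the cut just after it. Neurons of adult cortex no longer divide, and such cells rely more on the separate replication-independent variants, whose messengers are polyadenylated. The libraries were made from RNA depleted of ribosomal RNA and not by poly(A) selection, so RNA without a tail could enter them.

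The hairpin was looked for in the annotated transcripts of every member, as a perfect stem of 6 base pairs that opens with GG and closes with CC, around a loop of 4 bases that opens with TT, after the stop codon. It was found in 42 of 65 members, 21 to 58 bases after the stop codon with a median of 31. The hairpins took 6 forms, and 1 gene of each form is printed here to show where the types differ. Each run is read 5′ to 3′ on the strand of the gene from GENCODE transcripts of GRCm38, with the stem-loop in capitals and 5 flanking bases on each side in lower case.
Hist3h2ba (H2B, chromosome 11, plus strand): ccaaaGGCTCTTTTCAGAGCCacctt
Hist1h3e (H3, chromosome 13, minus strand): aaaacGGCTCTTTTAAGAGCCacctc
Hist2h2ac (H2A, chromosome 3, minus strand): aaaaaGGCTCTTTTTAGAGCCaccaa
Hist1h4d (H4, chromosome 13, plus strand): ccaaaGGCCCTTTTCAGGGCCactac
Hist2h4 (H4, chromosome 3, minus strand): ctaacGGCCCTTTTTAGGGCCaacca
Hist1h4b (H4, chromosome 13, plus strand): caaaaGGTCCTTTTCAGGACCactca

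The form of Hist3h2ba was the commonest, in 24 members: 3 H1, 9 H2A, 8 H2B and 4 H3 genes. The form of Hist1h3e stood in 6 members, 1 H1, 2 H2B and 3 H3 genes, and that of Hist2h2ac in 1. The other 3 forms, which differ from these inside the stem, stood only in H4 genes: 7 members had the form of Hist1h4d, 2 that of Hist2h4 and 2 that of Hist1h4b. So the 11 H4 hairpins and the 31 hairpins of the other types shared no form. Among all 141767 annotated transcripts, searched at any position and not only after the stop codon, the 16 letters of the commonest form were found in 29 genes. In that search 185 genes held some hairpin of this build. Of the 23 members with no match, 11 have a transcript model that stops at the stop codon, so that the hairpin region is not in the model. Where the hairpin was found, the model went on for 3 to 4884 bases past it, and for 21 of 42 members it went on for more than 80 bases.

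Upstream windows from RefSeq (GRCm38.p6, 250 bases before to 50 after the start) matched 57 of 65 members. On either strand, TATAAA stood in 54.4% of the matched members against 13.6% of all 32851 RefSeq windows, and CCAAT in 84.2% against 37.4%. CCAAT was present in the windows of all 5 H1, 16 H2A, 15 H2B and 9 H3 genes matched, but in 3 of 12 H4 windows. The octamer ATTTGCAT, the letters bound by POU factors such as the product of Pou2f1, stood in 6 H2A and 5 H2B windows and in no H1, H3 or H4 window, which is 19.3% of members against 1.74% of all windows. A match is a string of letters and not a shown binding site.

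Many H2A and H2B genes lie back to back and share 1 upstream stretch. There were 12 such H2A and H2B pairs, with starts 173 to 302 bases apart. The windows of such partners can overlap, so a single match can be counted for both. The motif shares above are thus shares of windows and not of separate sites. The window of Hist1h2bg is printed because it also holds the start of its H2A partner Hist1h2ae, on the other strand at position 23571220 of chromosome 13, and the window of Hist1h4d because that gene had the lowest p of all members. Capitals mark the motif TATAAA, the motif CCAAT and the octamer on either strand, so the opposite strand of CCAAT is read as ATTGG.
Hist1h2bg, chr13:23571150-23571449, plus strand: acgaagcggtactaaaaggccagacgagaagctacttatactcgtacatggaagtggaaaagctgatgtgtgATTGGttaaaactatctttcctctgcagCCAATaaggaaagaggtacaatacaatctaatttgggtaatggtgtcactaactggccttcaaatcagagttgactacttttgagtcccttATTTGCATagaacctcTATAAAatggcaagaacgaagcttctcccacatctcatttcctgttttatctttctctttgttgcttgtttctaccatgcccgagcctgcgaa
Hist1h4d, chr13:23581318-23581617, plus strand: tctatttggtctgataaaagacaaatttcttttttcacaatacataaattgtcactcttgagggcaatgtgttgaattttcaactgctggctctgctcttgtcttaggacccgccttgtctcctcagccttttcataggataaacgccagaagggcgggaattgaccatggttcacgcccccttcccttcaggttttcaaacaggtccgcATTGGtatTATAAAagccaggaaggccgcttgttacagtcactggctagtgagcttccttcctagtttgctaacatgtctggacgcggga

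Total counts were 17984153 to 23529592 a library. Saline sample 1 stood apart. The chi-square of its counts against the other 2 saline samples was 14.7 and 13.1 per degree of freedom, against 2.91 to 5.43 for the other pairs of a group. Of 15 olfactory bulb markers, 14 were at over 2 times their level in any other library. Their summed level, in CPM (counts scaled to a common library size, normalized by TMM), was 1070 in saline sample 1 and 299 to 347 in the other 5 libraries. Among the most specific of them, Eomes and Tbx21 were at 19.9 and 6.25 CPM there and at 0 to 0.332 CPM elsewhere. Neuroblast markers summed to 636 CPM in that library and 359 to 365 CPM in the others. The 8 markers of cortical pyramidal neurons, the labelled tissue, summed to 4005 CPM in saline sample 1 and 4629 to 5071 CPM in the others. Results for the histone genes are therefore given with and without this library, as are the genes named from other lists at an unadjusted p under 0.05.

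The 65 genes together took 0.0218% to 0.0318% of a library's counts, 4222 to 7249 counts. H4 genes held 48.5% of these counts, H2B 15.9%, H1 14.9%, H3 13% and H2A 7.65%. Per length the order was led by H4 as well: the median over genes of the mean FPKM, a count scaled by gene length and library size, was 17.9 for H4, 3.13 for H1, 2.89 for H3, 1.603 for H2B and 0.424 for H2A. This order depends on the length of the transcript models as well as on the counts, and some models run far past the hairpin. Hist1h1c (1560 bases) had a mean of 15.75 CPM and 10.08 FPKM, and Hist1h4k (312 bases) 6.748 CPM and 21.6 FPKM. Among H4 genes, Hist1h4d (1138 bases) had 22.58 CPM and 19.81 FPKM, and Hist1h4f (391 bases) 11.99 CPM and 30.62 FPKM. The spread of FPKM within a type was wide. Mean FPKM ran from 1.596 for Hist1h4j to 30.6 for Hist1h4f among H4 genes, and from 0.0162 for Hist1h2ap to 7.96 for Hist1h2ak among H2A genes. The highest of the other types were Hist3h2ba (17.5 FPKM), Hist1h3i (15.6 FPKM) and Hist1h1c (10.1 FPKM).

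**Figure D1:**
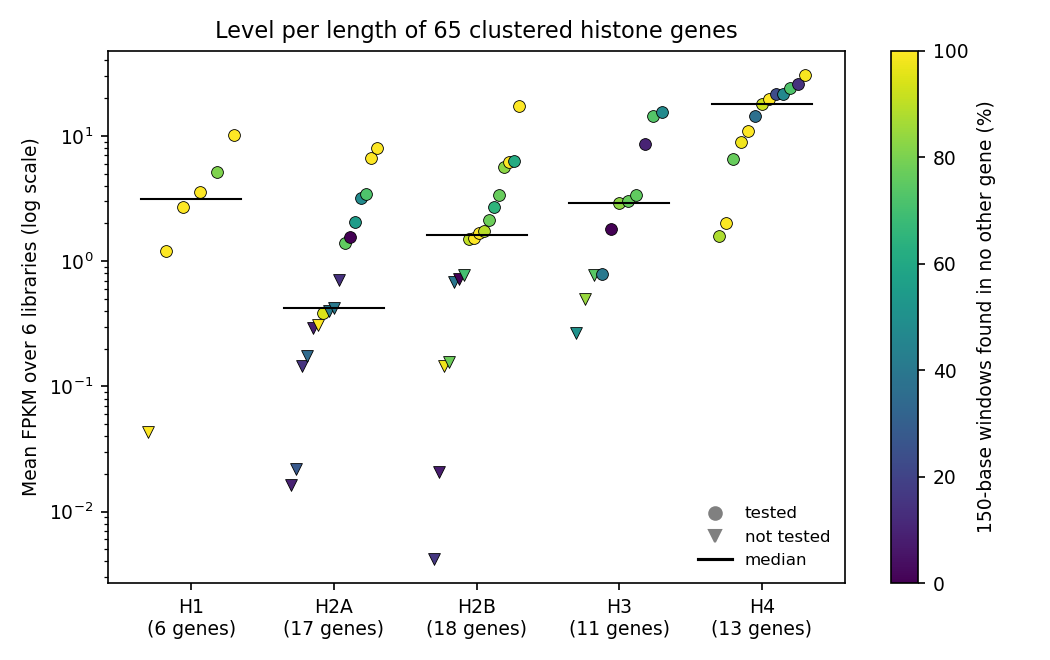
Mean FPKM over the 6 libraries (log axis) of each of the 65 genes by histone type; circles were tested, triangles had too few counts, the line is the median of the type and the color is the share of 150-base windows of the gene's transcripts found in no other gene. H4 genes lie highest, with a median of 17.9 FPKM against 0.424 FPKM for H2A genes, and dark points, whose sequence is mostly shared, occur at high as well as low levels.

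Not every level belongs to its gene alone. Of the 65 members, 51 share at least 1 window of 150 bases with another annotated gene, 14 are unique throughout, and Hist2h2aa2, Hist2h2bb and Hist2h3b have no unique window. The sources used here do not state how reads with several matches were counted, so levels of near-identical members are uncertain. The 12 members with under 25% unique windows, among them Hist1h4m and Hist1h4n, which share theirs only with each other, held 9.84% of the member counts, and the 34 with 75% or more held 67.5%. Whether the counting used strand is likewise not stated. Every H2A member overlaps an annotated gene on the other strand. Among the other types only Hist2h2bb, Hist2h3b and Hist1h4b do. What this does to the level of H2A genes beside the other types was not tested. Hist1h1e overlaps Hist1h2be, and Hist3h2a overlaps Trim17, on the same strand.

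Of the 65 members, 45 had at least 10 counts in at least 3 libraries and were tested, 69.2% against 59.7% of all genes. They were 13 of 13 H4, 5 of 6 H1, 8 of 11 H3, 11 of 18 H2B and 8 of 17 H2A genes. The 20 others had at most 19 counts in any library. Among these were Hist1h1t, the testis linker histone, with counts in 2 libraries only, and 6 members with under 10 counts in all libraries together.

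The comparison asks whether RNA of these genes differed in mPFC between mice trained with morphine and mice trained with saline. No member passed the test. With the quasi-likelihood test of edgeR, 0 of 45 had a higher and 0 a lower level in morphine at an unadjusted p under 0.05, where 2.77% of the 18970 genes tested were higher and 4.96% lower. After Benjamini-Hochberg adjustment over all genes tested 0 members passed, and the share over all genes was 0%. DESeq2 called 1 member, Hist1h4d, higher and none lower at that unadjusted threshold, and 0 after adjustment, where its shares over all genes were 2% higher, 3.13% lower and 0.113% after adjustment. The median log2 fold change was 0.02 over the members, ranging from -0.54 to 0.36, and -0.01 over all genes, and 26 of 45 members (57.8%) were above 0, against 47.5% of all genes. In tissue RNA, fewer cells of a type and less RNA per cell cannot be told apart.

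The precision bounds what could have been seen. The median standard error of a log2 fold change was 0.22 over the members and 0.13 over all genes. For 40 of 45 members the 95% interval lay within a change of 2-fold in either direction, and for 18 within 1.5-fold.

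**Figure D2:**
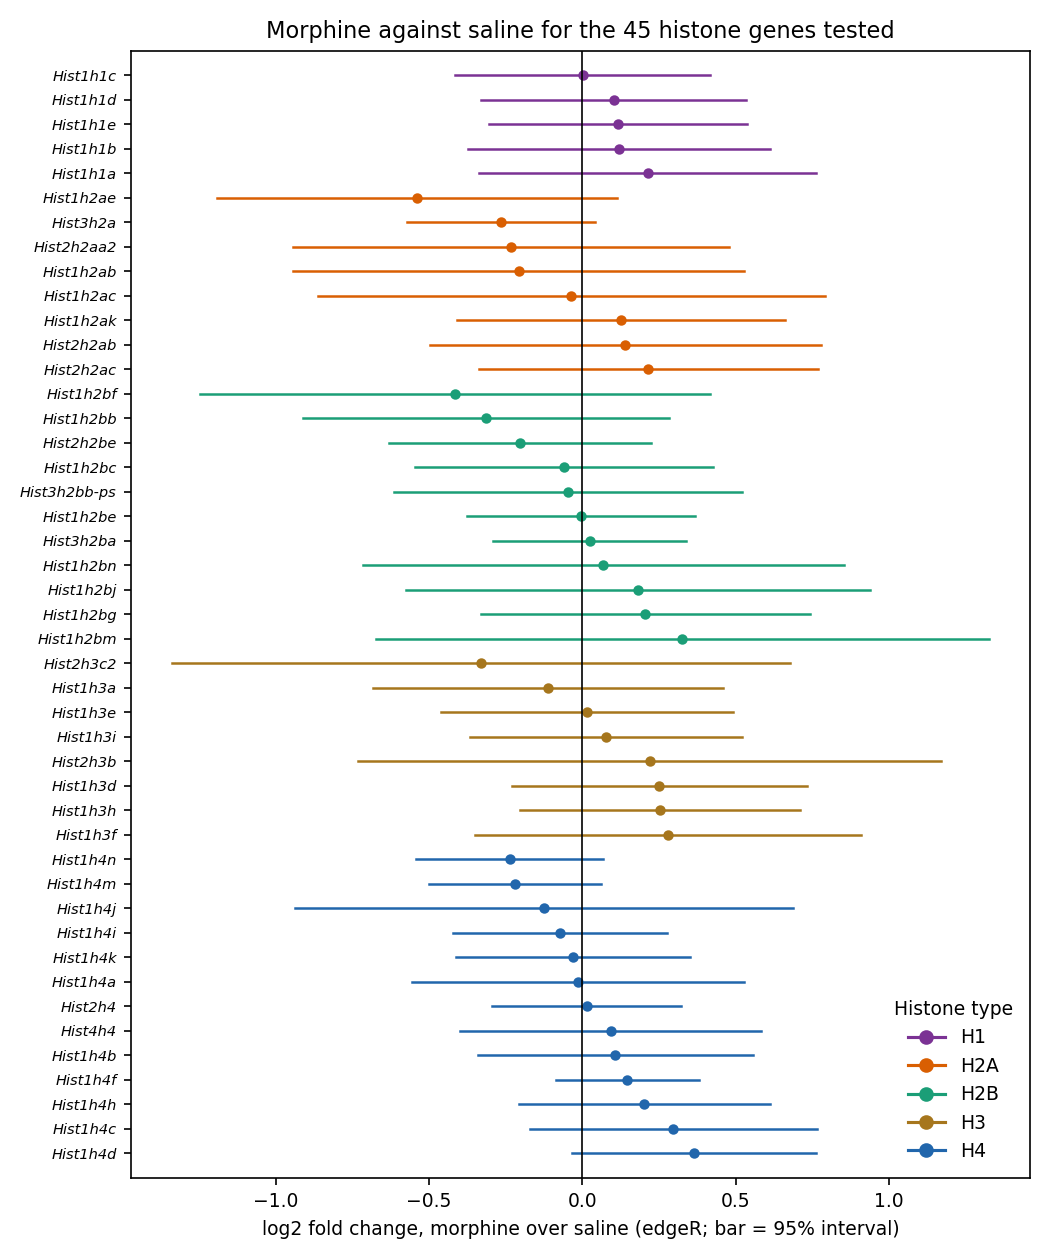
Log2 fold change of morphine over saline (x axis) for the 45 members tested, from edgeR, with bars for the 95% interval, grouped by histone type from H1 at the top to H4 at the bottom. Every bar crosses 0, and the points run from -0.54 for Hist1h2ae to 0.36 for Hist1h4d.

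Summed over all 65 members, the level was 287.6, 233.0 and 285.5 CPM in morphine samples 1 to 3, and 312.7, 240.8 and 217.8 CPM in saline samples 1 to 3. Means were 268.7 ± 30.96 CPM in morphine and 257.1 ± 49.49 CPM in saline (SD, n = 3 each), a log2 ratio of 0.06. The highest and the lowest library were both saline, so the saline samples enclosed the morphine samples. Without saline sample 1 the log2 ratio was 0.23, and it ranged from -0.04 to 0.23 as each library was left out in turn.

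**Figure D3:**
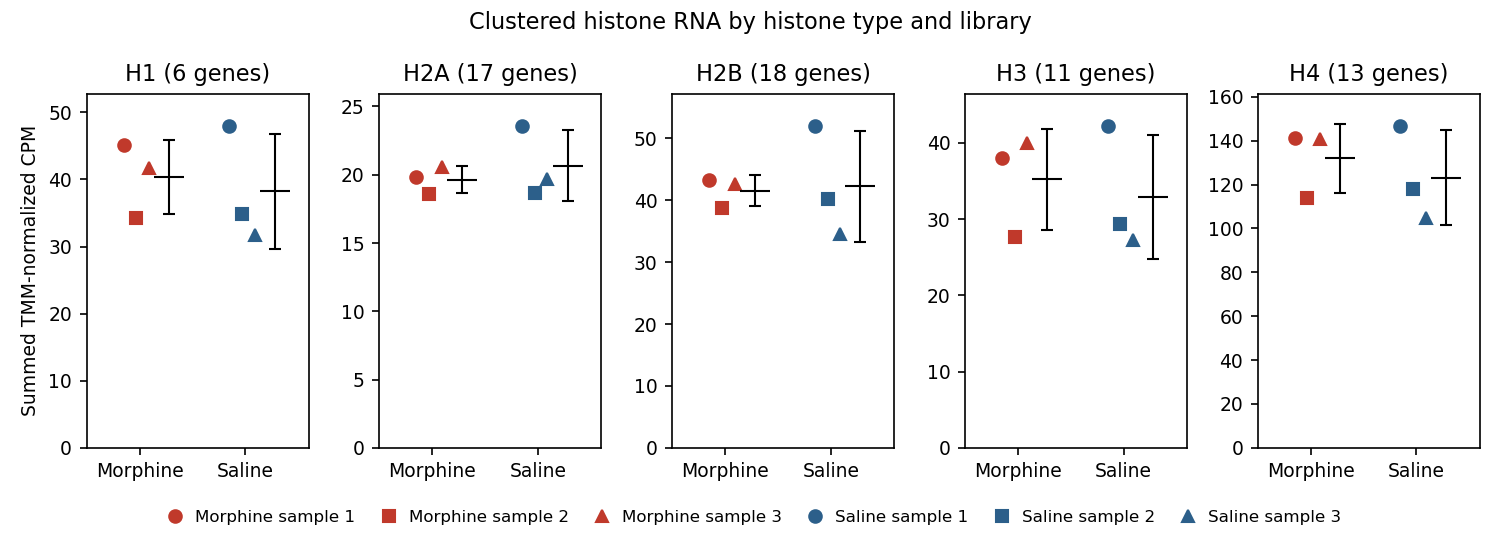
Summed TMM-normalized CPM of the members of each histone type in each library, morphine left and saline right; points are libraries and the black bar is the mean with its SD (n = 3). Saline sample 1 is the highest point in all 5 panels, and the groups overlap in each.

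Linker histones bind the DNA between nucleosomes and help to pack them. H1 genes summed to 45.1, 34.3 and 41.8 CPM in the morphine samples and 48.0, 34.9 and 31.8 CPM in the saline samples, and the groups overlapped. All 5 H1 genes tested had a log2 fold change above 0, from 0.00 to 0.21, with a lowest p of 0.41 (edgeR). Hist1h1c (chr13:23738808-23740367), the most abundant, was at 17.20, 13.02 and 17.05 CPM in morphine and 20.8, 12.2 and 14.2 CPM in saline, a log2 fold change of 0.00 (SE 0.19). Morphine lay inside the saline range, and without saline sample 1 the value was 0.26. Hist1h1e (chr13:23620629-23622558) was at 12.2, 8.88 and 9.69 CPM in morphine and 10.2, 11.4 and 6.79 CPM in saline, with a log2 fold change of 0.12 (SE 0.19).

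H2A and H2B form the dimers that dock on either side of the tetramer of H3 and H4 in the nucleosome. The summed level of H2A genes was 19.8, 18.6 and 20.6 CPM in morphine and 23.59, 18.67 and 19.67 CPM in saline, a log2 ratio of -0.07. Of 8 H2A genes tested, 5 had a log2 fold change below 0 and 3 above, with a median of -0.12.

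Both members whose groups did not overlap were H2A genes, and both were lower in every morphine sample, though neither passed the test. They are 4.44% of the 45 members, where 7.32% of all genes tested lay lower without overlap and 5.98% higher. Hist3h2a (chr11:58954685-58956830) was at 5.81, 7.23 and 6.93 CPM in morphine and 8.84, 7.45 and 7.71 CPM in saline, a log2 fold change of -0.27 (SE 0.14, unadjusted p of 0.083 and adjusted p = 0.67 with edgeR). Hist1h2ae (chr13:23570517-23571220) was at 0.940, 0.662 and 0.779 CPM in morphine and 1.29, 0.943 and 1.23 CPM in saline, a log2 fold change of -0.54 (SE 0.29, unadjusted p of 0.096 and adjusted p = 0.68 with edgeR). The gap of Hist1h2ae was narrow, since its highest morphine value and its lowest saline value differed only in the third decimal place.

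The 2 H2A genes of highest FPKM had positive values, and their groups overlapped. Hist1h2ak (chr13:21753435-21753827) was at 3.76, 2.70 and 3.33 CPM in morphine and 3.19, 2.07 and 3.73 CPM in saline, with a log2 fold change of 0.13 (SE 0.24). Hist2h2ac (chr3:96220361-96220880), the only member with its form of hairpin, was at 4.26, 3.15 and 3.72 CPM in morphine and 4.18, 3.25 and 2.09 CPM in saline, with a log2 fold change of 0.21 (SE 0.25).

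H2B genes summed to 43.3, 38.7 and 42.6 CPM in morphine and 52.0, 40.1 and 34.5 CPM in saline, a log2 ratio of -0.02. The morphine samples lay within the saline range. Of 11 genes tested, 5 had a log2 fold change above 0 and 6 below, from -0.42 for Hist1h2bf to 0.33 for Hist1h2bm. Hist3h2ba (chr11:58948920-58949533), which is unique throughout its transcript, was among the steadiest members, at 10.8, 10.5 and 11.1 CPM in morphine and 12.8, 10.4 and 8.68 CPM in saline, with a log2 fold change of 0.02 (SE 0.14). Hist1h2bg (chr13:23571396-23572013) was at 3.76, 4.69 and 4.20 CPM in morphine and 5.13, 3.06 and 2.71 CPM in saline, with a log2 fold change of 0.21 (SE 0.24). Saline sample 1 was the highest library for 8 of the 11 H2B genes.

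Partners that share an upstream stretch had like as well as opposite signs. Of 13 pairs of members that start back to back, both partners were tested in 5, and their log2 fold changes had the same sign in 3. Hist1h2ae and Hist1h2bg, whose shared window is printed above, stood at -0.54 and 0.21. Hist2h2ac and Hist2h2be, a back-to-back pair of the Hist2 cluster, stood at 0.21 and -0.20. Over the 8 tested members with the octamer the median log2 fold change was -0.12, with 3 above 0, and over the 30 tested members whose window lacked it 0.08, with 20 above 0. The octamer stood only in H2A and H2B windows, so these groups also differ in histone type. Median log2 fold changes by type were -0.12 for H2A, -0.004 for H2B, 0.12 for H1, 0.15 for H3 and 0.01 for H4. These are descriptions, and the difference was not tested.

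H3 and H4 form the tetramer at the center of the nucleosome. H3 genes summed to 38.1, 27.6 and 39.9 CPM in morphine and 42.2, 29.3 and 27.2 CPM in saline, a log2 ratio of 0.10, and 6 of 8 tested had a log2 fold change above 0. Hist1h3i (chr13:21782960-21783370) was at 6.58, 5.13 and 8.05 CPM in morphine and 7.72, 5.28 and 5.77 CPM in saline, with a log2 fold change of 0.08 (SE 0.20). Hist1h3e (chr13:23561534-23562369) was at 14.4, 9.77 and 12.1 CPM in morphine and 16.1, 10.9 and 8.68 CPM in saline, with a log2 fold change of 0.02 (SE 0.21). In both genes the libraries of 1 group differed by more than the groups did. The lowest p among H3 genes was 0.25, for Hist1h3h (log2 fold change 0.25, SE 0.21, edgeR), of which 9.5% of windows are unique.

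H4 genes summed to 141.4, 113.8 and 140.6 CPM in morphine and 146.8, 117.9 and 104.6 CPM in saline, a log2 ratio of 0.10. All 13 were tested, 7 with a log2 fold change above 0 and 6 below. Hist1h4f (chr13:23551258-23551648), the member of highest FPKM, was at 12.44, 12.03 and 13.33 CPM in morphine and 12.03, 11.64 and 10.47 CPM in saline. Its log2 fold change was 0.15, and its standard error of 0.10 was the smallest of all members, with a 95% interval from -0.09 to 0.38. Hist1h4m (chr13:21811746-21812147) was at 9.73, 8.50 and 10.7 CPM in morphine and 12.2, 11.4 and 10.1 CPM in saline, a log2 fold change of -0.22 (SE 0.13, unadjusted p of 0.11 and adjusted p = 0.68 with edgeR). Its near-copy Hist1h4n, on the other strand and with 22.8% of windows unique, had -0.24 (SE 0.14). Only 14.2% of the windows of Hist1h4m are unique, so these are not separate measurements.

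Hist1h4d (chr13:23581598-23582735) is named because its p was the lowest of the 45, which was chosen after its values were seen. It was at 28.8, 21.8 and 25.8 CPM in morphine and 25.3, 19.6 and 14.3 CPM in saline. The lowest morphine value lay below the highest saline value. Its log2 fold change was 0.36 (SE 0.18, unadjusted p of 0.069 and adjusted p = 0.66 with edgeR), and all of its windows are unique. Without saline sample 1 it was 0.59 (SE 0.12, adjusted p = 0.020, edgeR), the only member to pass the adjusted threshold in any setting tried.

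Libraries of 1 group differed by more than the groups did. Saline sample 1 was the highest library for 26 of 45 members (57.8%) and for 24.9% of all genes tested, and saline sample 3 the lowest for 17 of 45 (37.8%) and for 15.5% of all genes. On the log2 scale, with 0.1 CPM added and each gene set against its own mean over the libraries, the median member stood at 0.06, -0.17 and 0.13 in morphine samples 1 to 3 and at 0.28, -0.10 and -0.25 in saline samples 1 to 3. Over all genes tested these medians lay between -0.01 and 0.01. Members share their library, so these values are a description of 6 libraries.

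**Figure D4:**
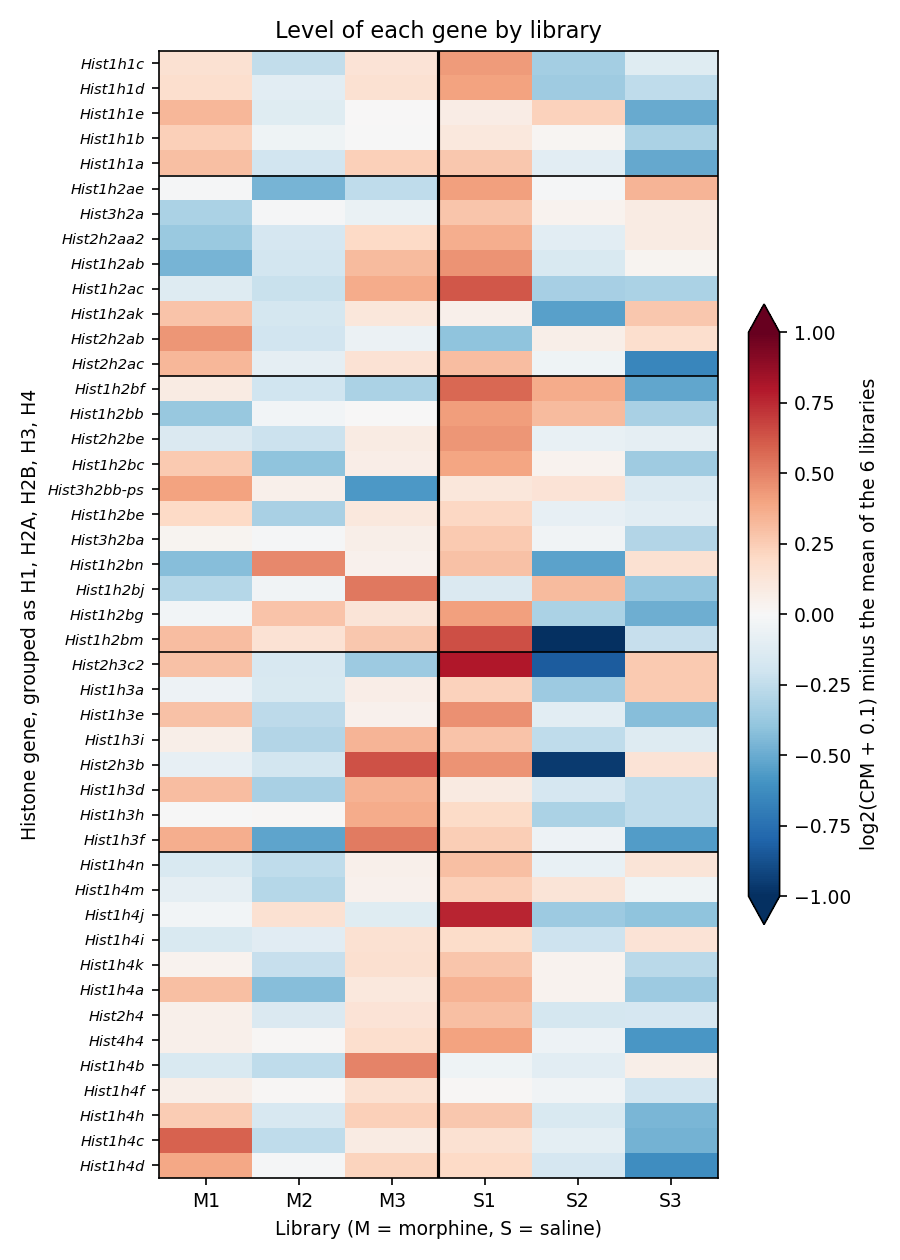
Each row is 1 of the 45 members tested, grouped from H1 to H4, and each column a library, morphine (M) left and saline (S) right; color is log2(CPM + 0.1) minus the mean of the 6 libraries. The S1 column is red for most genes and the S3 and M2 columns mostly blue, with medians of 0.28, -0.25 and -0.17.

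Markers of dividing cells were set beside the histone genes, since histone messengers belong to S phase. Of 20 S phase and proliferation genes, 16 were tested, and 0 passed in either direction at an unadjusted p under 0.05 (edgeR, lowest p 0.075, for the helicase gene Mcm7), with a median log2 fold change of 0.05. Mki67, a marker of cycling cells, was at 0.885, 1.82 and 1.51 CPM in morphine and 2.29, 0.707 and 0.664 CPM in saline. Cdk1, the mitotic kinase, was at 0.0553 to 0.259 CPM in all libraries. Summed, the 20 genes stood at 68.2 to 75.8 CPM in morphine, and at 80.3 CPM in saline sample 1 and 67.9 to 68.4 CPM in the other 2 saline samples. Saline sample 1 was thus also the highest library for this list, as it was for the olfactory bulb and neuroblast markers given above. Of the lists given below, it was highest for the replication-independent variants and the histone chaperones (849 CPM against 801 to 828 CPM). It was also highest for markers of oligodendrocyte precursors (619 CPM against 560 to 615 CPM), and it was not the highest for the other lists. The part of these lists in the histone values was not tested.

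Leaving out saline sample 1 changed the counts. It was the highest library for 57.8% of the members and 24.9% of all genes. Its removal therefore in itself raises the fold changes of most members. Members share their libraries, so the counts below are a description. Against saline samples 2 and 3, 7 of 45 members (15.6%) were higher at an unadjusted p under 0.05, where 4.14% of 18671 genes were, and 0 were lower, where 7.53% of genes were (edgeR). They were Hist1h4d, Hist1h4h, Hist1h1d, Hist1h4c, Hist1h2bg, Hist1h2bm and Hist1h1c, with log2 fold changes from 0.262 to 1.004. After adjustment 1 member, Hist1h4d, passed, which compares with 0.996% of all genes. In 11 members (24.4%) the groups then lay apart with morphine higher, against 13.1% of all genes, and in 2, Hist3h2a and Hist1h2ae, with morphine lower, against 14.6%. The median log2 fold change was 0.18 over the members, with 35 of 45 above 0, and 0.00 over all genes. Per type the log2 ratio of the sums was then 0.28 for H1, 0.04 for H2A, 0.16 for H2B, 0.32 for H3 and 0.25 for H4.

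These counts did not hold when other libraries were left out instead. Without morphine sample 2, 2 members, Hist1h3d and Hist1h4c, were higher at an unadjusted p under 0.05, where 3.95% of all genes tested were. Without saline sample 2, 1 member, Hist1h4n, was lower, where 5.14% of genes were. Without any 1 of the other 3 libraries 0 passed in either direction (edgeR). The shares over all genes were then 1.33% higher and 2.68% lower without morphine sample 1, and 1.64% and 2.37% without morphine sample 3. Without saline sample 3 they were 2.68% and 4.43%.

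Other genes of histone biology were set beside the clustered genes. Of 11 replication-independent variants, made outside S phase as well, 1 passed at an unadjusted p under 0.05, and the median log2 fold change was 0.03. It was H2afx, which encodes the variant phosphorylated around DNA breaks. H2afx was at 19.8, 19.5 and 20.7 CPM in morphine and 15.9, 18.1 and 14.2 CPM in saline, higher in every morphine sample (log2 fold change 0.32, SE 0.10, unadjusted p of 0.012 and adjusted p = 0.60 with edgeR). The variants summed to 368 to 375 CPM in morphine, and to 434 CPM in saline sample 1 and 342 to 346 CPM in the other saline samples, so that library was again the highest.

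Of 12 genes of histone messenger 3′ end processing, 0 passed in either direction at an unadjusted p under 0.05 (edgeR), with a median log2 fold change of -0.01. Slbp itself was at 16.6, 15.1 and 15.9 CPM in morphine and 16.1, 14.4 and 15.5 CPM in saline. The list's lowest p was 0.079, for Zfp473, a U7 snRNP-associated zinc finger gene (log2 fold change -0.76, SE 0.39). The summed level of this list was lowest in saline sample 1, 491 CPM, against 498 to 529 CPM in the other libraries. Not all of its genes were lowest there. Lsm11 was at 33.6 CPM in that library and 43.9 to 47.6 CPM in the others, while Slbp was not lowest there.

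Of 10 genes of histone gene transcription, 1 passed and the median log2 fold change was 0.00. It was Pou2f1, which encodes the octamer-binding factor Oct-1. Pou2f1 was at 46.4, 52.3 and 50.6 CPM in morphine and 57.5, 58.3 and 56.8 CPM in saline, lower in every morphine sample (log2 fold change -0.21, SE 0.06, unadjusted p of 0.0071 and adjusted p = 0.59 with edgeR). Npat, the coactivator of the histone clusters, was at 38.7, 45.1 and 46.3 CPM in morphine and 42.3, 45.6 and 45.6 CPM in saline, and its groups overlapped. Of 13 histone chaperone genes 11 were tested, 0 passed in either direction (edgeR), and they had a median log2 fold change of -0.06. Among the other cell type lists, 0 of 8 microglia, 0 of 7 endothelial and 0 of 5 red cell markers passed in either direction, and 2 of 8 markers of oligodendrocyte precursors, the main dividing cells of adult cortex, were lower, Pcdh15 (log2 fold change -0.28) and Cspg4 (-0.19), while 4 of the 8 were above 0 and the median of that list was -0.01. Of the markers that set saline sample 1 apart, 7 of 12 olfactory bulb and 3 of 11 neuroblast genes tested were lower, and of 8 pyramidal neuron genes 1, Neurod6, was higher (0.24), all at an unadjusted p under 0.05 (edgeR).

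The same lists were read without saline sample 1, which was chosen for them after seeing the data. H2afx then had a log2 fold change of 0.31 (SE 0.11, adjusted p = 0.20), Pou2f1 of -0.21 (SE 0.07, adjusted p = 0.16), Cspg4 of -0.23 (SE 0.08, adjusted p = 0.19) and Neurod6 of 0.18 (SE 0.06, adjusted p = 0.20), all with edgeR. These 4 genes kept their direction and an unadjusted p under 0.05. Pcdh15 stood at -0.27 (SE 0.06, adjusted p = 0.033, edgeR), past the adjusted threshold. Of 12 olfactory bulb genes, 3 (Tshz1, Sp8 and Synpr) were then higher at an unadjusted p under 0.05 and 0 lower. Of 11 neuroblast genes, Sp8, which is in both lists, was higher and Dcx was lower (log2 fold change -0.28, SE 0.06, adjusted p = 0.031, edgeR). Of the S phase and proliferation genes 1 of 16, Mki67, was higher, with a log2 fold change of 1.04 (SE 0.38, adjusted p = 0.25, edgeR). Of the variants H1f0 was higher besides H2afx, and of the 3′ end processing genes Zfp473 was lower (log2 fold change -0.91, SE 0.42, adjusted p = 0.40, edgeR). Values above 0 were not confined to the clustered genes. Above 0 were 11 of 11 variants (median 0.12), 7 of 7 endothelial (0.09), 4 of 5 red cell (0.25) and 7 of 8 pyramidal neuron genes (0.08). So were 10 of 12 olfactory bulb (0.20), 7 of 11 neuroblast (0.05), 6 of 8 precursor (0.07) and 10 of 16 S phase genes (0.11). Microglia markers had 4 of 8 above 0 (0.03) and genes of histone gene transcription 5 of 10 (0.04). Fewer were above 0 among 3′ end processing genes (3 of 12) and chaperones (3 of 11). The share of all genes above 0 in this setting is not given here, and their median was 0.00.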

How the data were processed

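Tissue RNA was depleted of rRNA and made into directional libraries, per the labels. For each gene, the authors deposited both a read count and an FPKM value in every library. The deposited counts are whole and not normalized. The deposited FPKM values equal the counts scaled by gene and by library, as tested on 13342 genes. Tools in the submitters' processing notes, given there without roles, are HISAT2 2.1.0, StringTie 1.3.3, cutadapt 1.9.3, DESeq2 1.26.0, HTSeq 0.11.2, limma 3.40.6 and DESeq 1.8.3, with build mm10.

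Members were taken by gene name, and groups from the sample titles. A gene entered the test with 10 or more counts in 3 or more libraries, which 18970 did. After TMM normalization, edgeR 4.0.16 (R 4.3.3) was run with its quasi-likelihood test, with treatment as the only term, two-sided, and p adjusted by Benjamini-Hochberg over all genes tested. CPM are counts scaled to the TMM-adjusted library size. Sums over members have no test. Alternatives were RLE size factors, other filters, DESeq2 1.42.0, limma 3.58.1 on log2(FPKM + 0.1) and log2(FPKM + 1), a replicate block and each library left out. Members given in full are those at an unadjusted p under 0.05 (there were 0), those whose groups did not overlap and the 2 of highest mean FPKM in each type. From the other lists, genes under that p or of lowest p are named. Members and lists were chosen with earlier results of these data known. Hairpins and shared windows of 150 bases come from GENCODE M21, upstream windows from RefSeq. A list of 10 small RNAs was not analysed here, as none was found by its symbol.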

Additional observations from a re-analysis of the deposited data

How the results depend on the processing

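The count of 0 members higher at an unadjusted p under 0.05 became 2 with no filter on low counts (Hist1h4d, Hist1h4c; 2.71% of all genes), 1 with DESeq2 (Hist1h4d; 2% of genes) and 0 to 7 with each library left out. The count of 0 lower became 2 with limma on log2(FPKM + 0.1), 2 with limma on log2(FPKM + 1) (Hist1h2ae and Hist1h4m in both; 4.39% and 4.335% of genes) and 0 to 1 with each library left out. Members at an adjusted p under 0.05 were 0 to 1 and members without overlap 2 to 13 with each library left out. The 7, the 1 at an adjusted p and the 13 (28.9% of members, 27.7% of all genes) came without saline replicate 1. Members without overlap were also 8 (17.8%, against 20.1% of genes) without morphine replicate 3 and 6 (13.3%, against 31.4%) without morphine replicate 2. They were 6 (13.3%, against 22.4%) without saline replicate 3 and 4 (8.89%, against 23.5%) without saline replicate 2. Without morphine replicate 1 they were 2 (4.44%, against 19.7%). The cause was not tested. The sums and the median moved by less than the spread between replicates in every setting, although the sign changed in several. Leaving out 1 of 3 libraries shifts a group mean by only part of that library's distance from it. For those settings the comparison with the spread was therefore nearly fixed in advance, and it does not show that the values are stable.

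The replicate block gave 1 member higher at an unadjusted p under 0.05 (Hist1h4d), where 2.29% of all genes were, 0 lower, where 4.64% were, and a median log2 fold change of 0.05. Deviations of samples with the same number correlated at 0.0153, 0.00133 and -0.0211 over 18970 genes, so no pairing by number was visible. With 3 samples a group, these values cannot exclude a shared day or preparation.

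Some named members changed sign with each library left out, none of them past the threshold with the opposite sign: Hist1h1c ranged from -0.15 to 0.26, Hist1h1e from -0.066 to 0.27, Hist1h2ak from -0.080 to 0.31, Hist1h3e from -0.16 to 0.30, Hist1h3i from -0.10 to 0.27, Hist2h2ac from -0.0014 to 0.47 and Hist3h2ba from -0.10 to 0.18. Members under 1 CPM rest on few counts, and their intervals are wide.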
